A study of Mus musculus with 9 samples.

Results

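The long noncoding RNAs (lncRNAs) described here are the 35 genes on nuclear chromosomes that the authors' table annotates as lncRNA and that had at least 5 reads in each of the 9 liver libraries. They were selected on these counts out of 11288 nuclear lncRNA genes in a table of 56748 genes, of which 3602 had a read in any library and 54 had one in every library. A minimum in every library removes lncRNAs that were near absent in one group, so the set leans towards lncRNAs that all groups expressed. The same 5 reads stood for a higher level in a smaller library, with 569044 nuclear reads in Control-3 and 1910420 in Indirubin-2. A lncRNA that rose from a low Control level was thus more easily left out than one that fell. Of the 5 members with a lowest count of 5, just inside the minimum, the 3 with the fewest reads in all were 2310015A16Rik, Snhg6 and ENSMUSG00000121137. Of the 4 lncRNAs with a lowest count of 4, just outside it, the 3 with the most reads in all were ENSMUSG00000121141, Gm49980 and Gm3734. Gm49980 had 4, 4 and 6 reads in Control, 34, 18 and 84 in DSS and 14, 54 and 77 in Indirubin, so a lncRNA of this kind was left out.

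LncRNAs are transcripts, usually made by RNA polymerase II and often spliced, that do not code for a long protein. Some work as RNA in the nucleus, such as Neat1, the scaffold of the nuclear bodies called paraspeckles, and Malat1, a resident of nuclear speckles. Others are host transcripts from which microRNAs or small nucleolar RNAs (snoRNAs) are cut, and many lie antisense to a coding gene and have no known function. In the liver, lncRNAs are known to follow feeding, hormones, injury and cell type.

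Liver RNA was taken from young adult C57BL/6J mice (C57BL/6 in the labels) in 3 groups of 3 libraries. The DSS group drank 3 cycles of 1.8% dextran sulfate sodium, a chemical that injures the colon and leaves chronic colitis, and was gavaged daily with 200 µL of water. The Indirubin group had the same DSS cycles and was gavaged with indirubin, a bis-indole pigment of indigo plants, at 1 g/kg/day. The Control group is labelled as water. The design text opens with the induction of colitis and names the groups only afterwards, so whether Control mice were free of DSS rests on that label. All groups share the strain and the gavage. The labels number the libraries of a group and do not say that each is a separate animal, so a p-value measures the spread between these libraries. In such bulk RNA, fewer cells of a type and less RNA per cell cannot be told apart.

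Libraries held between 6514863 and 7944684 reads in genes, of which 71.6% to 91.3% were mitochondrial, which left 569044 to 2132208 nuclear reads. The mitochondrial share was 87.5% to 91.3% in Control, 72.4% to 87.7% in DSS and 71.6% to 89.5% in Indirubin. Hepatocyte markers were abundant in every library, with a summed level between 11338 and 26163 normalized CPM (reads scaled to a fixed library size, after TMM normalization) over 11 genes. Genes of pancreatic acinar cells summed to 1795 and 1792 normalized CPM in Indirubin-2 and Indirubin-3 and to at most 25.7 in the other 7 libraries. Of the 21 acinar genes, 21 were at 0 in DSS-2 and none in Indirubin-3. The same libraries had the highest sums of 7 erythroid markers, 672 and 648 against at most 266 elsewhere, and of 15 Kupffer cell and macrophage markers, 314 and 296 against at most 221. Neutrophil markers summed to 3.15 to 6.58 normalized CPM in Control, 36.1 to 254 in DSS and 32.4 to 892 in Indirubin, with Cxcr2 at 0 in every library.

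The annotation of the members was checked against GENCODE M21, which held 31 of the 35 gene identifiers, with a biotype of lincRNA, antisense or processed transcript for each and, for some, retained intron or unclassified (TEC) transcripts besides. The members lie on 17 chromosomes, and 5 of them, among them Neat1 and Malat1, are on chromosome 19. Their exonic length ran from 312 to 22436 bases with a median of 3296, against a median of 1068 over the nuclear lncRNA genes of the table. Of the 35 members, 20 overlap another annotated gene and 11 overlap a coding gene, 10 on the opposite strand and 1, Gm17066, on the same strand. Whether the authors counted by strand is not given in the sources used here, so reads of a member and of its opposite-strand partner may not have been separated.

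Per unit of length the members were mostly low. Mean FPKM (fragments per length and library size, as deposited) over the 9 libraries ran from 0.337 to 49.2 with a median of 2.58. The highest levels belonged to Gm43500 at 49.2 FPKM, Gm10076 at 47.6, Gm17066 at 13.8, AI463229 at 12.6 and BC024386 at 11.95. Gm43500 is antisense to part of Mlxipl, the gene of the carbohydrate response factor ChREBP. Gm10076 is 99.48% identical over 383 bases to Rpl41, a ribosomal protein gene, and Gm17066 shares 415 bases with Rbm26 at 100% identity, so the level of either is uncertain. Rbm26 itself had 72 reads in the 9 libraries. Malat1, with 0.665 FPKM, ranked 5542 and Neat1, with 0.337 FPKM, ranked 8540 among 23841 nuclear genes with a value above 0. Neat1 thus had the lowest level per length of all 35, although it had 421 reads over the 9 libraries, since its annotated length is 21163 bases.

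**Figure D1:**
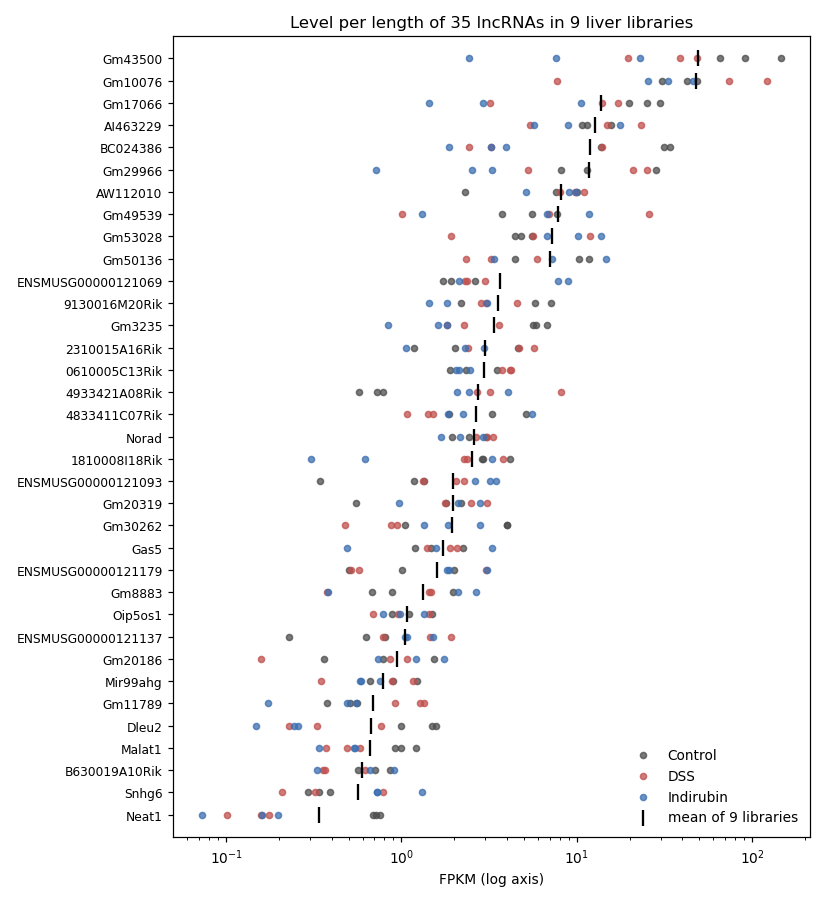
FPKM of each of the 35 lncRNAs in 9 libraries, on a log axis, coloured by group, with a black tick at the mean of the 9 values. Mean levels run from 0.337 FPKM for Neat1 to 49.2 FPKM for Gm43500, and the Control points of Neat1 stand to the right of all its other points.

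The members took a small part of the nuclear reads, and this part did not separate the groups. It was 0.382% ± 0.099 in Control, 0.337% ± 0.152 in DSS and 0.242% ± 0.073 in Indirubin (mean ± SD, n = 3), and the ranges of the 3 groups overlapped. All lncRNAs of the table together took 0.782% to 0.835% in Control, 0.498% to 1.05% in DSS and 1.34% to 1.56% in Indirubin, so for all lncRNAs the Indirubin libraries stood above the other 6. A single lncRNA outside the set, Gm43305, had 5718 and 8422 reads in Indirubin-2 and Indirubin-3 and at most 263 elsewhere. Without it, this separation was lost, as all lncRNAs took 1.53%, 1.04% and 0.905% in the Indirubin libraries and 1.04% in DSS-1. Gm29966 held 19.7% of all reads of the members, at 15.7% to 35.1% in the Control and DSS libraries and 2.09% to 7.28% in the Indirubin libraries.

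**Figure D2:**
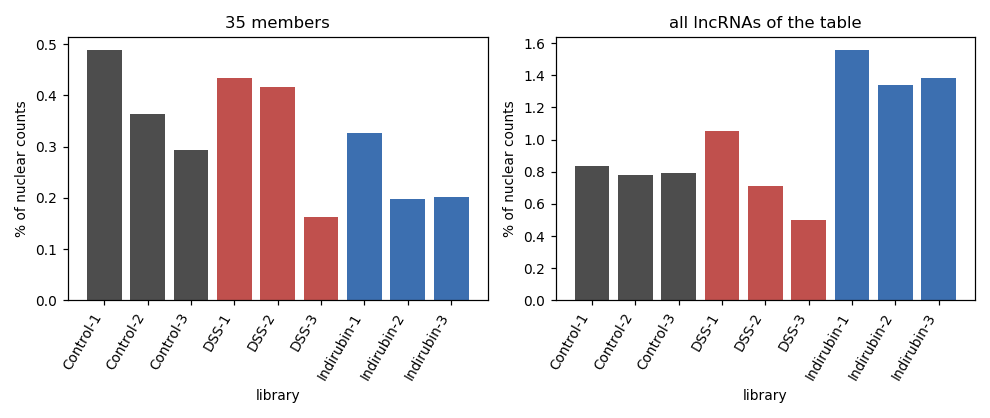
Percent of nuclear reads on the 35 members (left) and on all annotated nuclear lncRNAs (right) in each library. The members lie between 0.162% and 0.489% with overlapping groups, and all lncRNAs lie between 1.34% and 1.56% in the 3 Indirubin libraries.

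Between DSS and Control, which asks what colitis alone changed, 34 of the 35 members passed the filter on low counts, and Snhg6 did not. Tests are those of edgeR (quasi-likelihood), with fold changes on the log2 scale, their standard errors (SE) and p-values adjusted by Benjamini-Hochberg over all genes tested. At a raw p below 0.05, 1 member was higher in DSS, where 3.46% of all 7482 genes tested were higher. At the same threshold 9 members were lower, against 4.05% of all genes. At a Benjamini-Hochberg adjusted p under 0.05, 1 member (Neat1) fell, against 0.708% of all genes called either way. The groups did not overlap in normalized CPM for 12 of the 34 members (35.3%), 3 higher and 9 lower, against 15.7% of all genes. Nuclear genes with at least 5 reads in every library, the members left out, did not overlap in 16.1% of 4180 cases. The 77 lncRNAs tested that are not members did not overlap in 23.4% of cases, 8 higher and 10 lower. At a raw p below 0.05, 1 of these was higher and 6 were lower. As many members had a positive fold change as a negative one (17 each), with a median of 0.04 on the log2 scale, against 0.01 over all genes tested. Leaving out any one library left no member called, except that without DSS-2 BC024386 was called in place of Neat1.

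Between Indirubin and DSS, which asks what indirubin added to colitis, all 35 members were tested. At a raw p below 0.05, 2 were higher, against 4.44% of 9117 genes, and 3 were lower, against 3.22%. None passed an adjusted p under 0.05 in edgeR, as 0% of all genes did, while the DESeq2 Wald test called 1 member, Gm29966, and 80 of all 9117 genes. The groups did not overlap for 7 members (20%), 3 higher and 4 lower, against 16.4% of all genes. Among the 163 lncRNAs tested that are not members the share was 20.2%, 28 higher and 5 lower. The median member was at -0.29 on the log2 scale and the median gene at 0.15. Of the members, 12 had a positive and 23 a negative fold change. The lncRNAs tested that are not members had 115 positive and 48 negative fold changes, with a median of 0.86. The 4188 other nuclear genes with at least 5 reads in every library, the set chosen by the same minimum, had a median of -0.039.

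Between Indirubin and Control, which differ in both DSS and indirubin, 34 members were tested and Gm11789 was not. At a raw p below 0.05, 4 were higher, against 7.45% of 8059 genes, and 9 were lower, against 6.38%. At an adjusted p under 0.05, BC024386 and Dleu2 fell, against 0.236% of all genes called either way. The groups did not overlap for 13 members (38.2%), 5 higher and 8 lower. This compares with 21.6% of all genes and 21.1% of the 4169 nuclear genes with at least 5 reads in every library. Among the 110 lncRNAs tested that are not members the share was 40.9%, 34 higher and 11 lower, so it was not particular to the members. At a raw p below 0.05, 24 of these were higher and 9 lower. The median member was at -0.16 and the median gene at 0.12 on the log2 scale. Of the members, 13 had a positive and 21 a negative fold change. The lncRNAs tested that are not members had 75 positive and 35 negative, with a median of 0.58. The split of the members by sign thus depends on the rule that chose them. Without Indirubin-1, 9 members passed the adjusted threshold, and without any other single library none did, while 7 to 9 were then lower at a raw p below 0.05. Over all genes the count rose as well, from 19 of 8059 to 465 of 9721 without Indirubin-1. The comparisons share groups, so their values are given side by side and are not independent of one another.

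Scaling mattered for these counts. Without TMM, on library size only, the median of all genes moved from 0.01 to 0.69 for DSS versus Control and from 0.12 to 1.09 for Indirubin versus Control. The members then split into 5 higher and 2 lower for the first and 7 higher and 5 lower for the second at a raw p below 0.05, and the Indirubin versus DSS split was 1 and 2. Over all genes, 841 were then higher and 72 lower of 7482 for the first, and 2081 higher and 109 lower of 8059 for the second. For Indirubin versus DSS, 403 were higher and 106 lower of 9117. Differences below are relative to the TMM scale, on which mitochondrial genes count in the library size. With nuclear genes only, the counts at an adjusted p under 0.05 were again 1, 0 and 2.

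**Figure D3:**
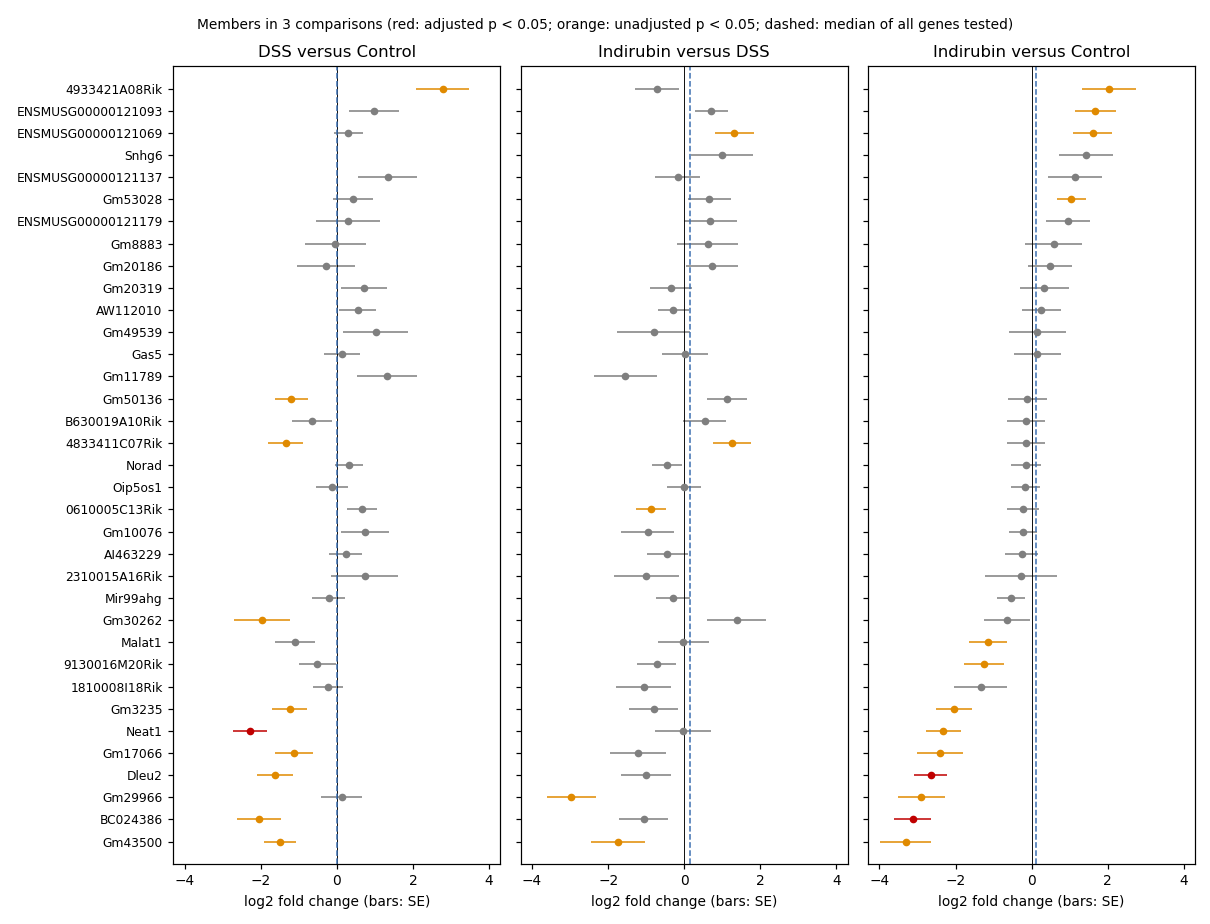
Log2 fold change of each member (points) with its SE (bars) in the 3 comparisons, with a dashed line at the median of all genes tested and no point where a gene did not pass the filter on low counts. Neat1 is the single red point for DSS versus Control at -2.28, BC024386 and Dleu2 are the red points for Indirubin versus Control at -3.12 and -2.65, and Indirubin versus DSS has none.

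Neat1 (ENSMUSG00000092274, chromosome 19, 5874736 to 5895898, minus strand, GRCm39) had the smallest p of the 34 members tested for DSS versus Control. Its level was 16.1, 16.5 and 16.2 normalized CPM in the Control libraries, 2.24, 3.35 and 4.19 in DSS and 3.48, 4.49 and 1.63 in Indirubin. The SD of the Control values was 0.196, and the highest value of any DSS or Indirubin library was 4.49. It fell by 2.28 on the log2 scale in DSS (SE 0.44, adjusted p = 0.0329). Leaving out any single library ended this call, with adjusted p between 0.072 and 0.19 and a log2 fold change between -2.48 and -2.08. It was also lost on library size only (adjusted p = 0.315) and with all 9 libraries in one fit (adjusted p = 0.0976). Against Control the Indirubin group was at -2.32 (SE 0.46, adjusted p = 0.0636), and against DSS at -0.03 (SE 0.74, adjusted p = 0.995). Its nearest coding neighbour without overlap, Frmd8, had 0, 6 and 8 reads in Control and 22 to 32 in the other 6 libraries, and its fold changes did not pass an adjusted p of 0.05.

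Malat1 (ENSMUSG00000092341, chromosome 19, 5845717 to 5852704, minus strand), which lies next to Neat1 on the same strand, showed a smaller difference in the same direction. Its level was 7.36, 9.46 and 6.55 normalized CPM in Control, 2.71, 4.06 and 3.82 in DSS and 3.84, 4.08 and 2.49 in Indirubin. All Control libraries were above all others, and the DSS and Indirubin values overlapped. The log2 fold change was -1.10 in DSS versus Control (SE 0.53, adjusted p = 0.698) and -1.14 in Indirubin versus Control (SE 0.50, adjusted p = 0.326). These values did not pass the test, and Malat1 was read from 21 to 54 counts a library. It shares 453 bases at 100% identity with Gm37376 on the opposite strand.

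Genes of paraspeckle proteins, which assemble on Neat1, were read beside it. Of 18 tested for DSS versus Control, 11 had a positive and 7 a negative fold change, with a median of 0.16 on the log2 scale and 0 past a raw p of 0.05, where 7.51% of all genes passed it. For Indirubin versus Control, 12 of 18 were positive with a median of 0.36, and 1 passed a raw p of 0.05, as did 13.8% of all genes. This was Hnrnpa1, a splicing factor of the paraspeckle, at 2.02 (SE 0.55, adjusted p = 0.136). For Indirubin versus DSS, Hnrnpa1 was at 1.64 (SE 0.49, adjusted p = 0.434), and 14 of 19 genes were positive.

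**Figure D4:**
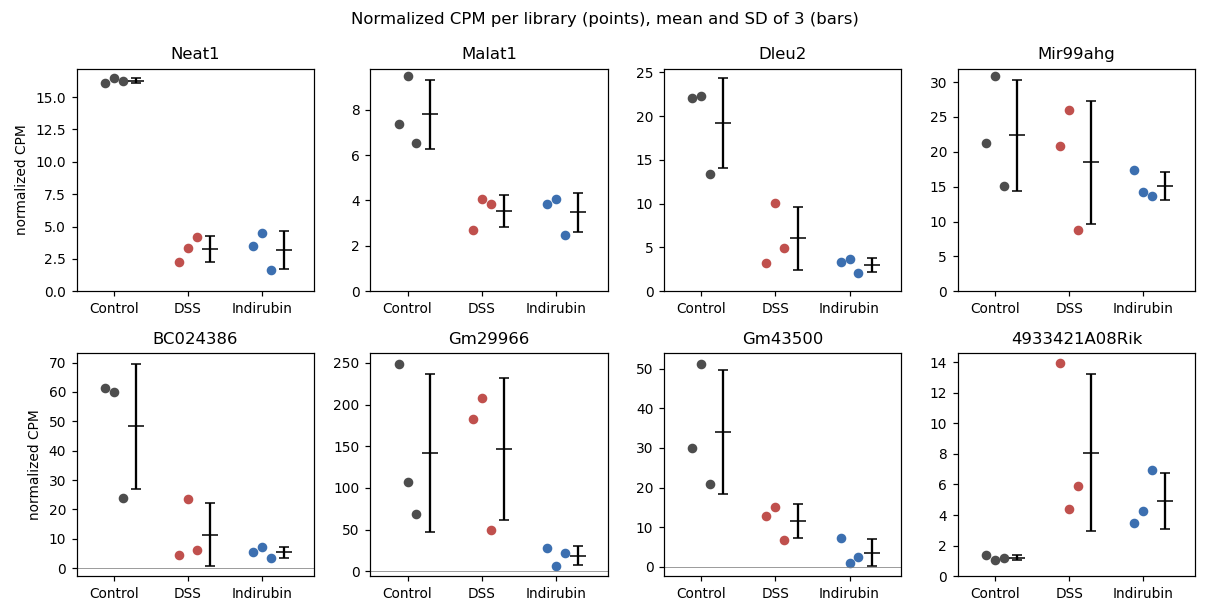
Normalized CPM of 8 members in each library (points) with the mean and SD of 3 libraries (black bars), on linear axes that include 0. The Control points of Neat1 lie at 16.1 to 16.5 and those of the other groups at 4.49 or less, while Gm29966 is at 27.985 or less in Indirubin and at 49.4 or more elsewhere.

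By the coordinates of the table, 3 members hold a microRNA gene within their bounds. Dleu2 holds Mir15a and Mir16-1, Mir99ahg holds Mir99a, Mirlet7c-1 and Mir125b-2, and Gm29966 holds Mir122, the gene of the most abundant microRNA of hepatocytes. The table listed 0 reads for all of these microRNA genes, so nothing is known here of the mature products. The mature 5′ arms of the first pair of hosts are shown because their seeds, the bases in capitals, tell which products would be read as one family. They are the sequences of RefSeq (GRCm38.p6).
mmu-miR-15a-5p: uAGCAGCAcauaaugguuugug
mmu-miR-16-5p: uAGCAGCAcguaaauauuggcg
mmu-miR-99a-5p: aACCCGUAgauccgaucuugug
mmu-let-7c-5p: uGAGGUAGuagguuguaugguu
mmu-miR-125b-5p: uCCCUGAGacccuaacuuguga
The capitals are bases 2 to 8. Both microRNAs inside Dleu2 share the seed AGCAGCA and so one set of target sites, while the 3 inside Mir99ahg have 3 seeds.

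Dleu2 (ENSMUSG00000097589, chromosome 14, 61840265 to 61919822, minus strand), a host transcript known from a region lost in leukaemia, was at 22.1, 22.2 and 13.3 normalized CPM in Control, 3.19, 10.1 and 4.91 in DSS and 3.29, 3.67 and 2.06 in Indirubin. Every DSS and Indirubin library was below every Control library, and the Indirubin libraries lay close together. Against Control it fell by 2.65 on the log2 scale in Indirubin (SE 0.44, adjusted p = 0.0333). The call held without Indirubin-1 and was lost without any other library, with adjusted p between 0.112 and 0.328, and on library size only it was 0.102. For DSS versus Control the log2 fold change was -1.63 (SE 0.48, adjusted p = 0.243), and for Indirubin versus DSS it was -1.002 (SE 0.65, adjusted p = 0.838). On the opposite strand, Dleu2 overlaps Trim13 and Kcnrg, and Kcnrg had 31 reads in all 9 libraries.

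Mir99ahg (ENSMUSG00000090386, chromosome 16, 77033184 to 77570315, plus strand) differed little between the groups. It was at 21.3, 30.8 and 15.03 normalized CPM in Control, 20.8, 25.9 and 8.74 in DSS and 17.4, 14.2 and 13.7 in Indirubin. The groups overlapped in every comparison, and the largest fold change was -0.55 on the log2 scale (SE 0.38, adjusted p = 0.578), for Indirubin versus Control.

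Gm29966 (ENSMUSG00000118017, chromosome 18, 65377358 to 65385692, plus strand), the transcript around Mir122, had the smallest p of all members for Indirubin versus DSS. It was at 249, 107 and 69.1 normalized CPM in Control, 183, 208 and 49.4 in DSS and 27.985, 6.44 and 22.3 in Indirubin. All Indirubin libraries were below the other 6, and Control and DSS overlapped. The log2 fold change was -2.97 for Indirubin versus DSS (SE 0.65, adjusted p = 0.350), which did not pass the test. Without Indirubin-1 it did, at -3.46 with an adjusted p of 0.038. Against Control it was -2.90 (SE 0.61, adjusted p = 0.0758), and for DSS versus Control it was 0.12 (SE 0.53). Hepatocyte markers were lower at a raw p below 0.05 in 2 of 11 genes for Indirubin versus DSS and in 5 of 11 for Indirubin versus Control, beside 3.22% and 6.38% of all genes. One of the markers, Hpx, was higher for Indirubin versus Control, at 2.48 (SE 0.68, adjusted p = 0.136). The medians of the 11 markers were -0.41 and -0.82 on the log2 scale, and their part in the level of Gm29966 was not tested.

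Of the snoRNA host genes, whose exons are spliced into short-lived transcripts while their introns carry snoRNAs, 2 of 18 in the table were members. Gas5 (ENSMUSG00000053332, chromosome 1, 160861992 to 160866116, plus strand), a host of 10 snoRNA genes in the table, was at 6.20, 10.2 and 4.85 normalized CPM in Control, 5.90, 8.29 and 8.46 in DSS and 2.01, 14.0 and 6.62 in Indirubin. The groups overlapped throughout and no fold change was larger than 0.15 on the log2 scale. Indirubin-1 gave its lowest and Indirubin-2 its highest value of all libraries, so its spread was widest within the Indirubin group (SD 6.06).

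Snhg6 (ENSMUSG00000098234, chromosome 1, 9926809 to 10014398, minus strand) was at 1.74, 1.40 and 1.45 normalized CPM in Control, 1.42, 0.882 and 3.73 in DSS and 3.11, 3.26 and 5.85 in Indirubin. The Indirubin libraries were above the Control libraries, and DSS overlapped both. For Indirubin versus Control the log2 fold change was 1.43 (SE 0.71, adjusted p = 0.408). It was read from 5 to 68 counts and overlaps Sgk3 and Mcmdc2 on the opposite strand. Of the other 16 snoRNA hosts, Snhg8 and Snhg12 reached 5 reads in 8 of 9 libraries, with Snhg8 at 0 in DSS-2, and 3 had no read at all.

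The proteins of snoRNA particles and of nonsense-mediated decay, the pathway that removes spliced host transcripts, were read beside these hosts. Of the decay factors, 4 of 13 were higher and 1 lower at a raw p below 0.05 for Indirubin versus Control, beside 7.45% and 6.38% of all genes. Their median was 0.59 on the log2 scale, against 0.12 over all genes. Eif4a3, a core of the exon junction complex, was at 1.86 (SE 0.57, adjusted p = 0.170) and Smg6, the endonuclease of the pathway, at -1.57 (SE 0.64, adjusted p = 0.292). Of 12 snoRNA particle proteins tested, 6 had a positive and 6 a negative fold change with a median of -0.062, and 1 was higher and 1 lower at a raw p below 0.05. Nop56, a core box C/D protein, was at -1.90 (SE 0.41, adjusted p = 0.0799) and Snu13, which binds the same particles, at 1.48 (SE 0.65, adjusted p = 0.332). None of these genes passed an adjusted p of 0.05. For DSS versus Control, 1 of 14 decay factors was higher and 1 lower at a raw p below 0.05, beside 3.46% and 4.05% of all genes. For Indirubin versus DSS 1 of 14 was higher, beside 4.44% of all genes, with a median of 0.52 against 0.15.

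Of the stress and growth lncRNAs, Norad and Oip5os1 were members, and neither passed a raw p of 0.05 in any comparison. Norad (ENSMUSG00000102869, chromosome 2, 156229980 to 156234921), which binds Pumilio proteins, was at 15.9, 13.5 and 9.70 normalized CPM in Control, 13.8, 15.2 and 18.6 in DSS and 14.8, 8.89 and 11.2 in Indirubin. Oip5os1 (ENSMUSG00000085438, chromosome 2, 119424757 to 119437983), also called cyrano, a lncRNA that destroys the microRNA miR-7, was at 16.8, 10.7 and 12.1 in Control, 16.3, 7.41 and 11.5 in DSS and 14.8, 9.05 and 11.2 in Indirubin. The groups overlapped for both in every comparison. Their fold changes lay between -0.45 and 0.32 on the log2 scale, with SE of 0.37 to 0.44. Norad is 99.17% identical over 2537 bases to the pseudogene Gm7292, so its reads may have been split between the 2 copies.

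Of the liver and metabolic lncRNAs, 4 were members, and none passed an adjusted p of 0.05 in any comparison. 4833411C07Rik (ENSMUSG00000109089, chromosome 8, 10949871 to 10973631), which lies 61050 bases from Irs2, the gene of an insulin receptor substrate, was at 24.2, 16.5 and 8.49 normalized CPM in Control, 6.61, 6.70 and 5.37 in DSS and 25.2, 10.7 and 8.69 in Indirubin. All DSS libraries were below all others. It was at -1.35 for DSS versus Control (SE 0.45, adjusted p = 0.375) and at 1.25 for Indirubin versus DSS (SE 0.50, adjusted p = 0.582), and neither passed the test. With 1 library left out, the fold change for Indirubin versus DSS ran from 0.54 to 1.53. Irs2 itself had 18, 15 and 14 reads in Control, 0 in all 3 DSS libraries and 29, 46 and 8 in Indirubin.

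0610005C13Rik (ENSMUSG00000109644, chromosome 7, 45217213 to 45224751), a liver lncRNA antisense to Bcat2, was at 7.17, 14.2 and 8.49 normalized CPM in Control, 14.0, 14.8 and 16.9 in DSS and 7.499, 9.46 and 8.08 in Indirubin. The DSS libraries were above the Indirubin libraries without overlap and overlapped Control. The log2 fold change was -0.87 for Indirubin versus DSS (SE 0.39, adjusted p = 0.642) and 0.66 for DSS versus Control (SE 0.39, adjusted p = 0.846). Bcat2, which codes for a branched-chain aminotransferase, was at 0.39 and 0.12 in those comparisons and did not pass the test.

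1810008I18Rik (ENSMUSG00000100094, chromosome 7, 65452758 to 65457460) was at 12.2, 18.6 and 11.6 normalized CPM in Control and 9.44, 14.99 and 10.6 in DSS, while the Indirubin libraries split into 13.4 in Indirubin-1 and 1.30 and 2.58 in the other two. Its log2 fold change for Indirubin versus Control was -1.34 (SE 0.69, adjusted p = 0.425), and -2.97 without Indirubin-1 (adjusted p = 0.0074). Without Indirubin-2 it was -0.85 (adjusted p = 0.759). The low libraries are those with the pancreatic acinar genes and the highest erythroid and Kupffer cell sums, whose part in this difference was not tested. AI463229 (ENSMUSG00000114828, chromosome 13, 37840998 to 37851710) ranged from 15.7 to 64.3 normalized CPM, with overlap in every comparison and fold changes between -0.45 and 0.23 on the log2 scale.

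The rest of the set belonged to none of the families listed. BC024386 (ENSMUSG00000109628, chromosome 7, 140485908 to 140487904, plus strand), which overlaps no other gene, was at 61.2, 60.1 and 23.8 normalized CPM in Control, 4.37, 23.6 and 6.19 in DSS and 5.67, 7.26 and 3.35 in Indirubin. All Indirubin libraries were below all Control libraries, and the highest DSS value, DSS-2, was just below Control-3. It fell by 3.12 on the log2 scale in Indirubin versus Control (SE 0.48, adjusted p = 0.0287). The call held without Indirubin-1 and was lost without any other library, with adjusted p between 0.0589 and 0.328, and on library size only it was 0.0572. For DSS versus Control it was at -2.04 (SE 0.58, adjusted p = 0.213) and without DSS-2 at -3.19 (adjusted p = 0.0135). Acinar markers summed to 10.8 normalized CPM in Indirubin-1, where BC024386 was at 5.67 and Dleu2 at 3.29. The part of acinar RNA in either difference was not tested.

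Gm43500 (ENSMUSG00000107296, chromosome 5, 135151264 to 135152147, minus strand) was at 30.0, 51.3 and 20.9 normalized CPM in Control, 12.7, 14.99 and 6.82 in DSS and 7.32, 0.816 and 2.49 in Indirubin. Control was above both other groups, while Indirubin-1 was above DSS-3. The log2 fold change was -1.50 for DSS versus Control (SE 0.42, adjusted p = 0.210), -1.75 for Indirubin versus DSS (SE 0.70, adjusted p = 0.585) and -3.31 for Indirubin versus Control (SE 0.67, adjusted p = 0.0636). Without Indirubin-1 the last was -4.46, with an adjusted p of 0.00119. The lower values are those of Indirubin-2 and Indirubin-3, which held the acinar genes and the highest erythroid and Kupffer cell sums, whose part was not tested. Mlxipl, which it overlaps on the opposite strand, was at -1.52 for DSS versus Control and -1.93 for Indirubin versus Control at raw p of 0.0517 and 0.0455, with 238 reads in all against 881 of Gm43500.

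Gm17066, Gm3235, 9130016M20Rik, Gm50136 and Gm30262 were the other members at a negative fold change with a raw p below 0.05 against Control. Gm17066, which shares its strand and sequence with Rbm26, was at 29.6, 37.1 and 22.3 normalized CPM in Control and at 19.1 or less in DSS. In Indirubin it split into 12.1 in Indirubin-1 and 1.71 and 3.44 in Indirubin-2 and Indirubin-3, the libraries with the acinar genes, whose part was not tested. The log2 fold change was -2.40 for Indirubin versus Control (SE 0.61, adjusted p = 0.113), and -3.63 without Indirubin-1 (adjusted p = 0.000893). Gm3235, antisense to the demethylase gene Fto, was at 11.4 to 13.8 in Control, 3.91 to 6.88 in DSS and 1.65 to 3.70 in Indirubin, so that the 3 groups did not overlap. Its log2 fold change was -2.04 for Indirubin versus Control (SE 0.47, adjusted p = 0.0906) and -1.24 for DSS versus Control. 9130016M20Rik, near A1cf, was at 5.09 to 18.2 in Control and 3.44 to 7.503 in Indirubin, with -1.26 on the log2 scale.

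Gm30262 and Gm50136 had their lowest group mean in DSS. Gm30262 was at 8.71, 9.28 and 2.18 normalized CPM in Control, 1.89, 1.94 and 1.09 in DSS and 5.85, 4.08 and 2.92 in Indirubin, with no overlap between DSS and either other group. It was at -1.97 for DSS versus Control (SE 0.74, adjusted p = 0.466) and 1.38 for Indirubin versus DSS (SE 0.77, adjusted p = 0.765). Phlda1, 86476 bases away, was at -2.25 for DSS versus Control at a raw p of 0.00444. Gm50136 was at 16.2 to 44.5 in Control, 9.46 to 21.3 in DSS and 13.05 to 53.8 in Indirubin, with 1.13 for Indirubin versus DSS (SE 0.53, adjusted p = 0.671). Stellate cell markers summed to 190 to 317 normalized CPM in Control, 95.4 to 135 in DSS and 141 to 247 in Indirubin. Sinusoidal endothelial markers summed to 51.6 to 121 in Control, 43.2 to 65.9 in DSS and 65.7 to 93.6 in Indirubin. The part of either cell type in the levels of these lncRNAs was not tested.

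4933421A08Rik (ENSMUSG00000086443, chromosome 4, 122855102 to 122857268, plus strand) was the member with the largest positive fold change against Control. It was at 1.36, 1.05 and 1.21 normalized CPM in Control, 13.9, 4.41 and 5.91 in DSS and 3.48, 4.24 and 6.97 in Indirubin. All 6 libraries of the DSS and Indirubin groups were above the Control libraries, which held 5 to 7 reads each. The log2 fold change was 2.78 for DSS versus Control (SE 0.70, adjusted p = 0.126) and 2.04 for Indirubin versus Control (SE 0.70, adjusted p = 0.213), and neither passed the test. With 1 library left out, the fold change for DSS versus Control ran from 2.09 to 3.02. It lies 121 bases from Mfsd2a, a lipid transporter gene on the opposite strand, which had 0, 10 and 0 reads in Control, 0, 0 and 47 in DSS and 4, 7 and 5 in Indirubin.

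ENSMUSG00000121093, ENSMUSG00000121069, Gm53028 and ENSMUSG00000121137 had positive fold changes for Indirubin versus Control, none of which passed an adjusted p of 0.05. ENSMUSG00000121093 was at 1.16, 4.90 and 3.88 normalized CPM in Control, 7.67, 6.53 and 4.82 in DSS and 11.3, 9.05 and 10.8 in Indirubin. The Indirubin libraries were above all others, and the log2 fold change against Control was 1.67 (SE 0.54, adjusted p = 0.188). ENSMUSG00000121069 was at 10.8 in Indirubin-1 and at 41.9 and 46.7 in Indirubin-2 and Indirubin-3, against 9.10 to 14.8 in the other groups. It was at 1.61 against Control (SE 0.52, adjusted p = 0.186) and 1.31 against DSS (SE 0.51, adjusted p = 0.557), and at 1.87 against Control without Indirubin-1 (adjusted p = 0.0074). Without Indirubin-2 it was at 1.40 (adjusted p = 0.459) and without Indirubin-3 at 1.29 (adjusted p = 0.479). The same pair of libraries held the acinar genes and the highest sums of erythroid and Kupffer cell markers, whose part was not tested. Its neighbour Cyp2d22, a cytochrome P450 gene 2644 bases away, was at -0.98 against Control at a raw p of 0.0225.

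Gm53028 was at 13.8 to 15.5 normalized CPM in Control, 5.91 to 34.5 in DSS and 19.5 to 38.8 in Indirubin, with 1.05 for Indirubin versus Control (SE 0.38, adjusted p = 0.235). ENSMUSG00000121137 was at 0.876 to 2.90 in Control, 3.00 to 6.53 in DSS and 3.66 to 5.42 in Indirubin, with 1.34 for DSS versus Control (SE 0.78, adjusted p = 0.821) and 1.15 for Indirubin versus Control (SE 0.70, adjusted p = 0.517). Gm11789, antisense to the glucagon receptor gene Gcgr, was at 1.40 to 1.94 in Control, 3.19 to 4.73 in DSS and 0.602 to 1.96 in Indirubin. DSS was above both other groups, with 1.31 for DSS versus Control (SE 0.80, adjusted p = 0.854) and -1.55 for Indirubin versus DSS (SE 0.83, adjusted p = 0.742). Gcgr went the other way for DSS versus Control, at -1.12 with a raw p of 0.0447, and had the same sign as Gm11789 for Indirubin versus DSS, at -0.74.

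The remaining 9 members, Gm10076, AW112010, Gm49539, 2310015A16Rik, Gm20319, ENSMUSG00000121179, Gm8883, Gm20186 and B630019A10Rik, had overlapping groups in every comparison and no raw p below 0.05. Gm10076 ran from 3.30 normalized CPM in DSS-1 to 49.2 in DSS-2, and Gm49539 from 0.728 in DSS-3 to 17.5 in DSS-1, so the spread within DSS was as wide as that over all libraries. AW112010, an interferon-responsive transcript of immune cells that can be translated, was at 3.87 to 18.04 in Control, 12.7 to 18.4 in DSS and 8.60 to 16.9 in Indirubin.

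**Figure D5:**
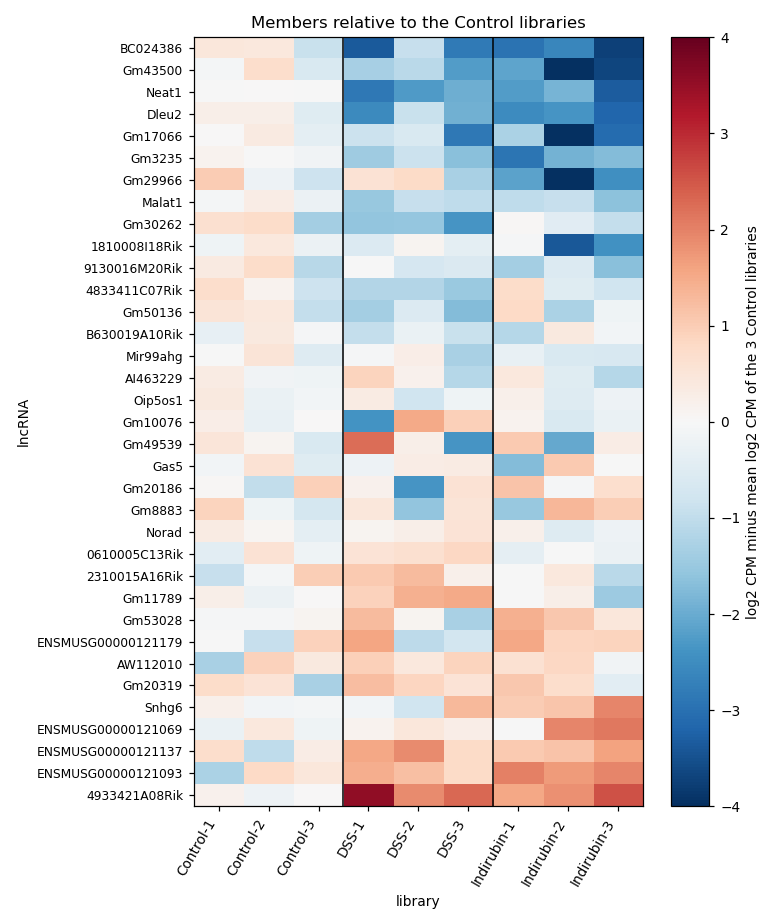
Log2 normalized CPM of each member in each library minus the mean of the 3 Control libraries, with members ordered by their mean over the DSS and Indirubin libraries and colours capped at 4 either way. The top rows, from BC024386 to Malat1, are blue in most DSS and Indirubin libraries, except that Gm29966 is pale red in DSS-1 and DSS-2, at 183 and 208 normalized CPM.

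The spread within a group was of similar size for the members and for other genes. The median coefficient of variation of normalized CPM was 36.1% in Control, 36.3% in DSS and 39.3% in Indirubin over the 35 members, and 33.6%, 38.5% and 36.1% over the 4193 other nuclear genes with at least 5 reads in every library. Indirubin-3 held the lowest value of 8 members and Control-2 the highest value of 9, more than any other library in either case.

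The sign of a member's fold change was set beside that of its overlapping or nearest coding gene, with no test. For DSS versus Control, 17 members had a tested nearest coding gene, and 8 of these pairs had the same sign of fold change. For Indirubin versus DSS the count was 14 of 21 and for Indirubin versus Control 8 of 20. Among pairs that overlap, the counts were 2 of 6, 6 of 8 and 3 of 7. Il1rap, the accessory receptor of interleukin-1 that lies opposite Gm20319, was at -1.38 for Indirubin versus Control at a raw p of 0.0167, while Gm20319 was at 0.34 (adjusted p = 0.890). For Indirubin versus DSS they had the same sign, with Il1rap at -1.15 at a raw p of 0.0256 and Gm20319 at -0.34.

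Windows of 300 bases around an annotated start, 250 before and 50 after it, were taken from the RefSeq promoter table for 14 of the 35 members, which have 23 such windows. Windows of Neat1, Norad and Snhg6 were not used here. The letters TNGCGTG, a form of the xenobiotic response element bound by the aryl hydrocarbon receptor (AhR), of which indirubin is a known ligand, stood on either strand in 1 window, that of Mir99ahg, against 5.07% of 32851 windows of all genes. The shorter core GCGTG, which the longer form contains, stood in 4 of the 23 windows, in Mir99ahg, Gas5, 0610005C13Rik and 2310015A16Rik, against 32.4% of all windows. The antioxidant form TGACNNNGC stood in 4 windows, against 12.4%, and the TATA box TATAAA in 1, that of Dleu2, against 13.6%. A match is a description of the letters and not a site.

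The windows of Dleu2 and BC024386, the members that fell against Control in Indirubin, and of Mir99ahg, which holds the letters TNGCGTG, are shown with matches to any of these motifs in capitals (RefSeq, GRCm38.p6, 5′ to 3′ on the strand of the gene). They are chr14:61682324-61682623 on the minus strand for Dleu2, chr7:140905771-140906070 on the plus strand for BC024386 and chr16:77329078-77329377 on the plus strand for Mir99ahg.
Dleu2: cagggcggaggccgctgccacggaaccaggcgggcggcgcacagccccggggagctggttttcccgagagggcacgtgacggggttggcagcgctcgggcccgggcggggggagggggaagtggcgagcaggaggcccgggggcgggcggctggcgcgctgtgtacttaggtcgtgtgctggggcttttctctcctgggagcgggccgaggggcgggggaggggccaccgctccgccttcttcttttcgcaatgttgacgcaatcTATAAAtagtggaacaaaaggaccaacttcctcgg
BC024386: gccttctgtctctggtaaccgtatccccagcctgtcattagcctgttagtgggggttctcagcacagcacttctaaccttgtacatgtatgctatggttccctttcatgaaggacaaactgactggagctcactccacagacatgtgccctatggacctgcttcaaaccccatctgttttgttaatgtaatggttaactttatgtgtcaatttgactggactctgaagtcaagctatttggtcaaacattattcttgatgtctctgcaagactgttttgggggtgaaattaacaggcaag
Mir99ahg: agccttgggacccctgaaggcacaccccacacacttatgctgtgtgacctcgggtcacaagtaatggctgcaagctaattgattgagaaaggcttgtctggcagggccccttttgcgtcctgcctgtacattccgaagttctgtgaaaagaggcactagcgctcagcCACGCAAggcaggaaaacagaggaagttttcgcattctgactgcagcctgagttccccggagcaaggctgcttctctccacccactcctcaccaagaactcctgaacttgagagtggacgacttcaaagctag
The Dleu2 window is 69.0% G and C and its TATAAA begins at base 15 counted from the start, the BC024386 window is 44.3% G and C and has no match, and the Mir99ahg window is 53.7% G and C. The median over all windows was 52.7%.

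Several well-known lncRNAs did not reach the minimum. None of 10 imprinted lncRNAs in the table was a member, and H19 had 206 reads in Indirubin-3, 11 in DSS-2 and 0 in the other 7 libraries. None of the 10 listed immune lncRNAs in the table was a member. The member AW112010, described above as a transcript of immune cells, was not on that list. Morrbid, which sustains short-lived myeloid cells, had 0, 7 and 1 reads in Control, 21, 0 and 16 in DSS and 26, 45 and 51 in Indirubin. None of the 4 X-inactivation lncRNAs reached 5 reads in more than 4 libraries. Zfas1, a snoRNA host, had 187 reads in Indirubin-2 and 0 in DSS-2. C4a, which the table lists as a lncRNA, had 71, 225 and 187 reads in Control and 2 to 57 in the other 6 libraries. At these depths a lncRNA with few reads cannot be called absent from a group.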

How the data were processed

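Gene expression was measured by RNA sequencing of 9 mouse liver libraries on a DNBSEQ platform, 3 each for Control, DSS and Indirubin, grouped by their labels. The authors deposited a table with raw read counts per gene, made by aligning the reads to the mouse genome, and the counts were used as deposited. The same table holds FPKM values that the authors deposited per gene length and per library size, without stating which library size they used. The submitters' processing notes name the build GRCm39. The aligner, the counter, its strand setting and the annotation release are not given in the sources used here. The authors' columns of group means, log2 fold changes and p-values, and their 3 lists of genes chosen by comparison, were not used. No per-sample column was left without a sample (0 columns).

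The 35 lncRNAs are rows with the biotype lncRNA, off the mitochondrial genome, with at least 5 counts in each of the 9 libraries. The members, the gene lists and the rule for named genes were chosen with earlier results of these data known. Named were members of the lncRNA families listed, the 5 with the highest mean FPKM, the 4 smallest p-values each way in each comparison, their overlapping or nearest coding genes, the lncRNAs next to the minimum, and genes with the smallest p-values in the protein lists. The other members described one by one (Gm3235, 9130016M20Rik, AW112010, Gm49539, Gm20319) and Gm43305 and C4a were chosen after their values were seen.

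Each comparison was fitted on all genes of its 6 libraries with edgeR 4.0.16 (quasi-likelihood, TMM, filterByExpr with a minimum count of 10 and total of 15) in R 4.3.3, with Benjamini-Hochberg adjustment over all genes tested. Levels are CPM normalized by TMM over the 9 libraries. The 3 comparisons share groups. The scripts were tested on simulated data. Replicate numbers were checked for pairing: same-numbered libraries correlated between -0.0295 and 0.0358 in their deviations from the group means, so the numbers were not used as a block. Alternatives were DESeq2 1.42.0 size factors and Wald test, library size only, no filter, at least 10 counts in every library, nuclear genes only, all 9 libraries in one fit, a replicate block, other rules for the members, and each library left out. Similar transcripts were found with blastn 2.17.0 in GENCODE M21 (at least 95% identity over at least 100 bases). Promoter windows and microRNA sequences are those of RefSeq for GRCm38.p6, and gene coordinates are those of the table. Read depth limits precision most for members with fewer than 10 counts in a library, 13 of 35.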

Additional observations from a re-analysis of the deposited data

How the results depend on the processing

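Of the fold changes with the 4 smallest p-values each way in each comparison, none changed sign under any alternative run. On library size only, DSS versus Control gave 5 members higher and 2 lower at a raw p below 0.05 and a median of 0.66 (log2). At an adjusted p below 0.05 it gave 0 members and 19 of 7482 genes. Indirubin versus Control gave 7 higher, 5 lower and a median of 0.72, with 3 members (Gm43500, ENSMUSG00000121069 and ENSMUSG00000121093) and 243 of 8059 genes at an adjusted p below 0.05. Indirubin versus DSS gave 1 higher and 2 lower. The raw counts over all genes are given above. With no filter on low counts, 2, 1 and 8 members passed the adjusted threshold for DSS versus Control, Indirubin versus DSS and Indirubin versus Control, as did 125 of 18484, 156 of 23034 and 379 of 22767 genes, and 6 members were lower at the raw threshold for Indirubin versus DSS. With at least 10 counts in every library compared, 0 of 23, 4 of 28 and 2 of 25 members were higher at the raw threshold, and 9, 2 and 8 were lower. Over all genes, 204 of 3327, 243 of 3988 and 311 of 3602 were higher, and 234, 242 and 378 were lower. The adjusted threshold was then passed by 2 members for DSS versus Control and 5 for Indirubin versus Control, beside 84 of 3327 and 72 of 3602 genes. The DESeq2 Wald test called 4, 1 and 7 members, and 143, 80 and 316 of all genes, against 53, 0 and 19 by edgeR. All 9 libraries in one fit called 0 members for DSS versus Control and 5 for Indirubin versus Control, beside 11 and 56 of 9713 genes. The replicate block called 0 members for DSS versus Control (Neat1 at an adjusted p of 0.098) and 4 for Indirubin versus Control. Over all genes it called 30 of 7482 and 49 of 8059. The labels give no shared source for a number.

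Over lncRNAs with a mean count of at least 5, 2 of 111 tested were higher, 15 lower and 2 called for DSS versus Control. Of all genes, 3.46% were higher, 4.05% lower and 0.708% called. For Indirubin versus DSS, 11 were higher and 7 lower with a median of 0.59, and for Indirubin versus Control, 28 and 18 with a median of 0.36. With at least 10 counts in every library as the rule for members, 22 remained. Of these, 0 were higher and 7 lower for DSS versus Control, 2 and 3 for Indirubin versus DSS, and 2 and 8 for Indirubin versus Control. Among the 15 members without an overlapping gene, 1 was higher, 2 lower and 0 called for DSS versus Control, and 1 was higher and 0 lower for Indirubin versus DSS. For Indirubin versus Control, 3 were higher, 2 lower and 1 called. The fits are the main ones, so the shares of all genes are those just given.

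The mean share of nuclear reads on the members, with ribosomal RNA genes left out of the denominator (an alternative chosen after seeing the data), was 0.394% in Control, 0.359% in DSS and 0.262% in Indirubin. Leaving out rRNA-like annotations changed nothing, since no member is one.

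Leaving out 1 library at a time, the members' median ran from -0.37 to 0.11, from -0.51 to -0.14 and from -0.50 to -0.087 in the 3 comparisons, the count higher from 1 to 2, 0 to 2 and 2 to 5, the count lower from 5 to 10, 1 to 4 and 7 to 10, and the adjusted calls from 0 to 1, 0 to 1 and 0 to 9, the last without Indirubin-1. Members with few reads cannot be compared finely at this depth, and the cause of these shifts was not tested.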
